A study of Homo sapiens with 21 samples.

Results

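The genes described here are the G1 cyclins and the CDK inhibitors of BT-549 cells, a set of 10 genes picked by name from the 42339 gene identifiers of the count table. They are the D-type cyclins CCND1, CCND2 and CCND3, the E-type cyclins CCNE1 and CCNE2, the CIP/KIP inhibitors CDKN1A (p21), CDKN1B (p27) and CDKN1C (p57), and the INK4 inhibitors CDKN2B (p15) and CDKN2C (p18). BT-549 is an established triple-negative breast cancer (TNBC) line, and bulk RNA-seq was done on 21 cultures, 3 in each of 7 groups. The 2D cells grew as monolayers in RPMI1640 with serum and insulin, and the 3D cells as mammospheres, in MammoCult medium on plates that prevent attachment, at passage 6. The third group was 3D cells treated with 0.75 μM GO-203, a peptide inhibitor directed at the CQC motif in the cytoplasmic part of MUC1-C. The tet-MUC1shRNA mammospheres, also at passage 6, and the tet-MYCshRNA mammospheres, at passage 8, carry 1 shRNA each under a tetracycline-inducible promoter and received 0.1% DMSO as vehicle or 500 ng/ml doxycycline (DOX). No group with a control shRNA and DOX was analysed here, so DOX itself and silencing cannot be told apart. Medium and growth format changed together between 2D and 3D cells and cannot be told apart either.

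As background, a cell leaves G1 when cyclin-dependent kinases phosphorylate the pocket proteins and free the E2F factors that switch on the genes of S phase. D-type cyclins bind CDK4 and CDK6 and link this step to growth signals, while E-type cyclins bind CDK2 and act later. INK4 inhibitors bind CDK4 and CDK6 in place of a D-type cyclin, and CIP/KIP inhibitors bind whole cyclin-CDK complexes. Cyclin D1 is a well-known oncogene product in breast cancer. p21 is a classical p53 target, p15 responds to TGF-beta, and the genes of both are textbook examples of repression by MYC, which also activates other genes with its partner MAX at the E-box sequence CACGTG.

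Promoter sequences from RefSeq (GRCh38.p14) were matched for 6 of the 10 genes in 10 entries, each with 250 bases before and 50 after a transcript start. CDKN2B and CDKN1A are shown because of their rise on MYC silencing and their known repression by MYC. From CDKN2C, 2 of the 3 entries are shown because they alone among the 10 entries read held an E-box. Capitals mark E-boxes (CACGTG) and GC boxes (GGGCGG, read on both strands), and a pair of overlapping GC boxes appears as 1 run. All are written 5′ to 3′ along the gene's strand.
CDKN2B, minus strand, chr9:22009256-22009555: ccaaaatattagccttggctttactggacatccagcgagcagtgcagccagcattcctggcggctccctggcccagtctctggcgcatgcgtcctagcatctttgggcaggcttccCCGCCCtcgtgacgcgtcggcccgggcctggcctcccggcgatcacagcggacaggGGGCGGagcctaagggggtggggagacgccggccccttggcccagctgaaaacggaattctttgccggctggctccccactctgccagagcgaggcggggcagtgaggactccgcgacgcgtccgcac
CDKN1A, plus strand, chr6:36678464-36678763: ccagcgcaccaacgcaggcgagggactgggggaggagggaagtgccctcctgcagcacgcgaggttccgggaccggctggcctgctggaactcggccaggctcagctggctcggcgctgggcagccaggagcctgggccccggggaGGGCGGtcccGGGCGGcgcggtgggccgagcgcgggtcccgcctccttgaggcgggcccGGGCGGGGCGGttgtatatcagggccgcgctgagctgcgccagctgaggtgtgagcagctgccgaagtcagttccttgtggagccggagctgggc
CDKN2C, upstream start, plus strand, chr1:50960495-50960794: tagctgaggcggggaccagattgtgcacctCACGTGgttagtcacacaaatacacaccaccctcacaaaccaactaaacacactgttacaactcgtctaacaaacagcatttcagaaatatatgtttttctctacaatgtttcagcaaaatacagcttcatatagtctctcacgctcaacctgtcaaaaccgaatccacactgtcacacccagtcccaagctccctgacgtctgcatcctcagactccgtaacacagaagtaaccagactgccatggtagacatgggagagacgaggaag
CDKN2C, downstream start, plus strand, chr1:50969995-50970294: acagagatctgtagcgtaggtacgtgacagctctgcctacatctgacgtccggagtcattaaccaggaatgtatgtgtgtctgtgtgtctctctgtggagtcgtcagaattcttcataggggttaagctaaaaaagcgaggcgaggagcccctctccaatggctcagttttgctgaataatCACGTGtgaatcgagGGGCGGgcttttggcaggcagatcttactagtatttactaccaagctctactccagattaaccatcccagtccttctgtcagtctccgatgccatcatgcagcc
The E-box began 220 bases before the upstream CDKN2C start and 69 bases before the downstream one. The entry of the third CDKN2C start, which lies between them (chr1:50968456-50968755), held no E-box and 6 GC boxes. Among 35116 promoter windows of the same length, 7.3% held an E-box and 45.0% a GC box. The CDKN2B window held 2 GC boxes, the CDKN1A window 4 and the CCNE1 window 7. A match is a run of letters and not a measured binding site.

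Library totals ranged from 38026597 to 99751717 counts, and levels are given in CPM, counts relative to library size after edgeR's TMM scaling over the 21 libraries. MUC1 fell by 2.06 on the log2 scale when its shRNA was induced, and MYC fell by 0.62 under the MYC shRNA, as their labels say. With DOX the tet-MYCshRNA line still had a mean of 273.5 CPM of MYC. The mean was 244.9 CPM in vehicle-treated tet-MUC1shRNA mammospheres and 85.35 CPM in 2D cells. Although the tissue label reads epithelial breast, EPCAM stayed at or below 0.124 CPM and CDH1 at or below 1.51, whereas VIM ran from 1075 to 2485 CPM, and the hematopoietic markers PTPRC and CD3E stayed at or below 1.49 and 0.0653. Markers of other cell types that were called past a log2 fold change of 1.5 did so mostly at very low levels. From 2D to 3D cells the mean of CDH1 went from 1.42 CPM to 0, PTPRC from 1.25 to 0.0632 CPM, KRT8 from 0.176 to 0.506 CPM and PECAM1, an endothelial marker, from 0.0114 to 6.76 CPM. On MUC1 silencing CDH1 went from 0.0305 to 0.310 CPM and KRT8 from 0.0419 to 1.34 CPM, KRT18 rising as well, while the 5 epithelial markers together reached at most 2.72 CPM in any library. The mesenchymal markers were abundant, and from 2D to 3D cells CDH2 went from 441 to 51.2 CPM and FN1 from 451 to 6731 CPM. On MUC1 silencing 2 of the 4 rose and 2 fell, CDH2 going from 11.9 to 74.1 CPM and ZEB1 from 323 to 119 CPM, with VIM at 0.18 and FN1 at -0.51 on the log2 scale. On MYC silencing 3 of the 4 mesenchymal markers rose and 1 fell, FN1 going from 5175 to 12470 CPM. Their part in the values of the G1 genes was not tested. The library labelled tet-MYCshRNA + DOX replicate 1 stood furthest from the others of its group. Chi-square divided by its degrees of freedom was 52.8 and 36.3 against them and 4.36 to 21.04 for all other pairs of replicates. For the 10 genes and the lists of related genes, values without it are given where leaving it out changed a call. In bulk samples, fewer cells of a type and less RNA per cell cannot be told apart.

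The D-type cyclin CCND1 (ENSG00000110092.4, chromosome 11, 69641156 to 69654474) was the gene of the set that varied most, with 166-fold between its lowest and highest group means. In 2D cells it was counted at 1.22, 1.16 and 1.81 CPM, and in 3D cells at 99.6, 96.6 and 97.6 CPM. GO-203-treated 3D cells had 54.4, 49.0 and 51.6 CPM. The 3D libraries thus lay above every 2D and every GO-203 library. In the tet-MUC1shRNA line it was at 121, 128 and 126 CPM with vehicle and at 196, 194 and 186 CPM with DOX. In the tet-MYCshRNA line it was at 232, 224 and 239 CPM with vehicle and at 118, 122 and 126 CPM with DOX. DOX thus raised CCND1 in the first line and lowered it in the other, with no overlap in either. The order of the group means ran from tet-MYCshRNA with vehicle at the top to 2D cells at the bottom, and the only neighbours to overlap were tet-MUC1shRNA with vehicle and tet-MYCshRNA with DOX. Exons of LTO1 on the opposite strand cover 10.4% of the CCND1 exon bases.

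CCND3 (ENSG00000112576.13, chromosome 6, 41934934 to 42050357) had a mean of 28.2 CPM in the 2D libraries (SD 2.69, n = 3) and lay between 51.3 and 70.3 CPM, as group means, in the 6 mammosphere groups. Those 6 groups overlapped with their neighbours in the order, and only the 2D cells stood apart. CCND2 (ENSG00000118971.9, chromosome 12, 4269771 to 4305353) was scarce, with 12 to 136 counts and 0.242 to 1.88 CPM in the 21 libraries. All of its counts were even numbers, as were 72.4% of all counts from 1 to 4 and 50.7% of those of 1000 or more in the table. The cause was not tested, and halving every count changed none of the calls given here for the 10 genes. CCND2 shares 12.5% of its exon bases with ENSG00000285901 on the same strand, so its reads are uncertain.

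Divided by exon length, the make-up of the D-type cyclins differed between the groups. CCND3 made up 92.6% ± 2.15 (SD, n = 3) of the summed D-type cyclin CPM per kilobase in 2D cells, and CCND1 made up 5.61% ± 1.60. In 3D cells CCND1 made up 65.4% ± 1.29 and CCND3 34.4% ± 1.27. The sum itself was 5.28 ± 0.409 CPM per kilobase in 2D cells and 31.5 ± 1.0 in 3D cells. By this measure CCND1 was also the main D-type cyclin of the other mammospheres, from 54.2% with GO-203 to 82.7% in the vehicle-treated tet-MYCshRNA line. Before division by length, CCND1 and CCND3 were close with GO-203, at means of 51.7 and 52.6 CPM.

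**Figure D1:**
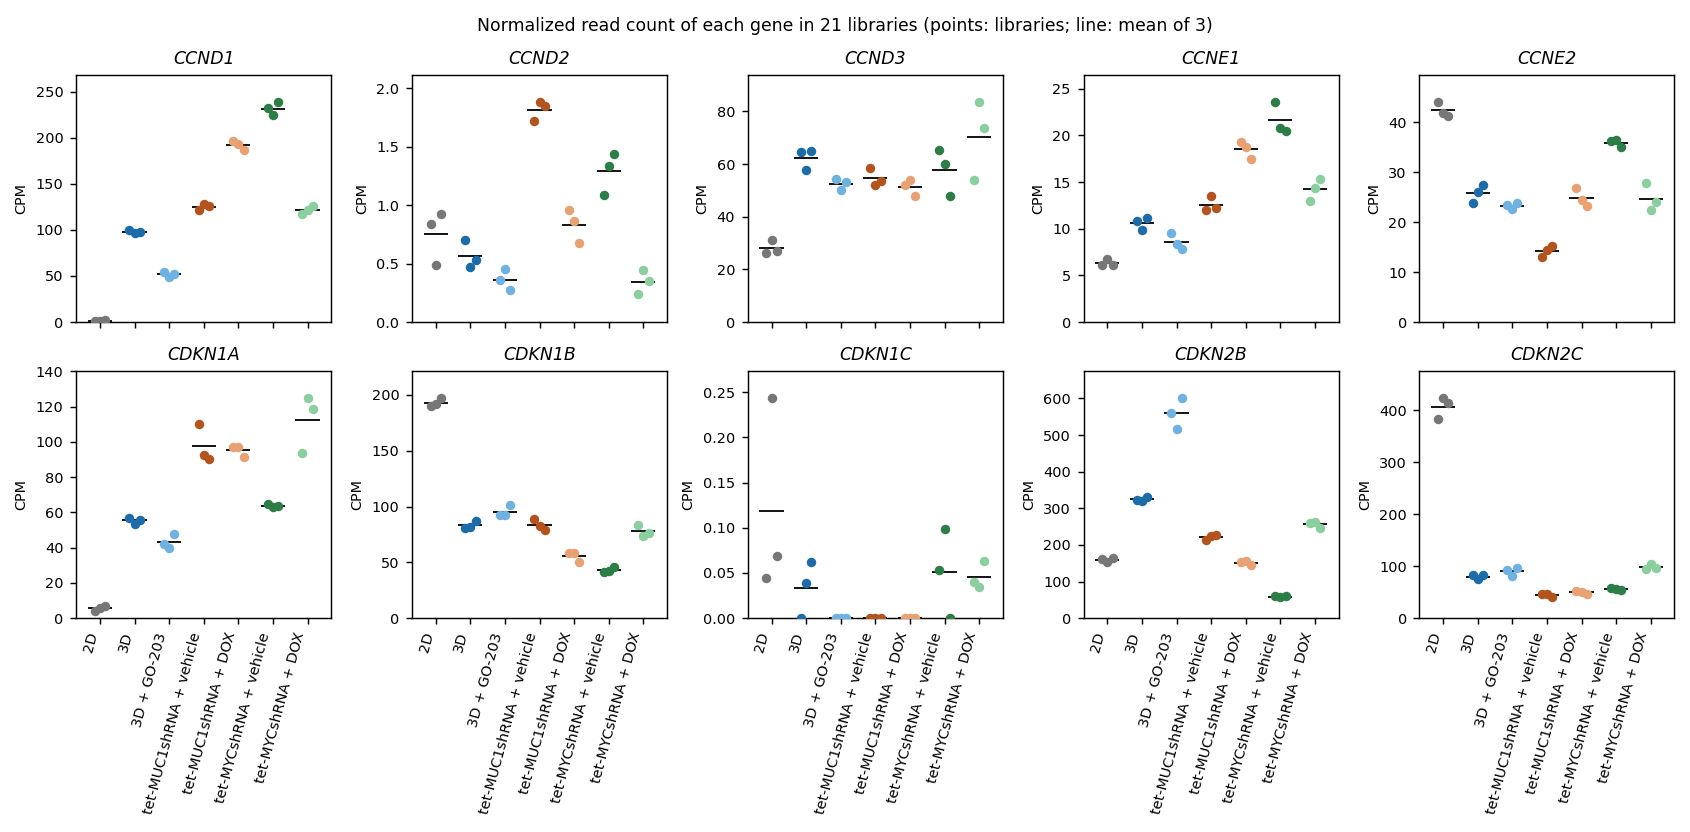
Normalized read count in CPM (y axis, linear from 0, own scale per panel) of the 10 genes in the 7 groups (x axis). Points are the 21 libraries and lines the means of 3. CCND1 runs from 1.40 CPM in 2D cells to 232 CPM in vehicle-treated tet-MYCshRNA mammospheres, while CDKN2C has its highest values, with a mean of 407 CPM, in 2D cells.

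Of the E-type cyclins, CCNE1 (ENSG00000105173.14, chromosome 19, 29811991 to 29824312) was lowest in 2D cells, at 6.08, 6.73 and 6.10 CPM, against 10.8, 9.82 and 11.1 CPM in 3D cells. With GO-203 it was at 9.52, 8.32 and 7.88 CPM, just below the 3D cells. It rose from 12.01, 13.5 and 12.2 CPM to 19.3, 18.8 and 17.5 CPM on MUC1 silencing. It fell from 23.6, 20.8 and 20.4 CPM to 12.96, 14.4 and 15.4 CPM on MYC silencing. CCNE1 therefore shifted as CCND1 did in each of the 4 pairs of groups.

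CCNE2 (ENSG00000175305.18, chromosome 8, 94879770 to 94896678) had its highest level in 2D cells, at 44.1, 41.9 and 41.3 CPM, with 23.8, 26.1 and 27.4 CPM in 3D cells and 23.4, 22.6 and 23.8 CPM with GO-203. On MUC1 silencing it rose from 12.97, 14.5 and 15.2 CPM to 26.9, 24.6 and 23.2 CPM. On MYC silencing it fell from 36.3, 36.5 and 35.1 CPM to 27.8, 22.4 and 24.0 CPM. The 3D cells and both DOX-treated groups had nearly the same level and overlapped. Exons of INTS8 on the opposite strand cover 37.0% of the CCNE2 exon bases, and since the strand setting of the counting is not given in the sources used here, part of these reads may be from INTS8. Per kilobase, CCNE1 made up 20.98% ± 1.27 of E-type cyclin CPM in 2D cells, 42.3% ± 2.34 in 3D cells and 61.2% ± 1.98 in vehicle-treated tet-MUC1shRNA mammospheres (SD, n = 3). Before division by length, CCNE2 had the higher mean in that last group, at 14.2 CPM against 12.6 CPM for CCNE1.

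Among the CIP/KIP inhibitors, CDKN1A (ENSG00000124762.14, chromosome 6, 36676460 to 36687337), whose promoter is shown above, was low in 2D cells, at 4.12, 5.70 and 6.90 CPM. It was at 56.9, 53.5 and 55.8 CPM in 3D cells and at 42.0, 39.6 and 47.6 CPM with GO-203. The tet-MUC1shRNA line had 110, 92.3 and 90.5 CPM with vehicle and 97.3, 97.3 and 91.5 CPM with DOX, and these overlapped. The tet-MYCshRNA line went from 64.5, 62.9 and 63.9 CPM with vehicle to 93.8, 125 and 119 CPM with DOX, with the replicate 1 library the lowest of the DOX group and still above all vehicle libraries. CDKN1B (ENSG00000111276.12, chromosome 12, 12685498 to 12722369) showed another order and was highest in 2D cells, at 190, 192 and 197 CPM, against 81.1, 81.4 and 86.8 CPM in 3D cells. With GO-203 it was at 92.4, 92.2 and 102 CPM, above every 3D library. It went from 89.1, 82.4 and 78.5 CPM to 58.6, 58.0 and 50.7 CPM on MUC1 silencing. On MYC silencing it moved the other way, from 41.4, 42.5 and 45.8 CPM to 83.5, 73.7 and 76.5 CPM.

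CDKN1C (ENSG00000129757.15, chromosome 11, 2883213 to 2885775) was close to absent, with 48 counts over the 21 libraries and at most 14 in 1 library, and it was not tested. It was at 0 in the GO-203 libraries, where each count of 0 allows up to 3 counts. The 6 tet-MUC1shRNA libraries were blank for it in the count table and were read as 0. Per kilobase, CDKN1B made up 91.7% ± 1.80 of CIP/KIP inhibitor CPM in 2D cells and CDKN1A 67.3% ± 1.03 in 3D cells (SD, n = 3). The lengths here merge all exons of a gene, 9255 bases for CDKN1B and 2996 for CDKN1A. Before this division CDKN1B was still the higher in 3D cells, at a mean of 83.1 CPM against 55.4 CPM for CDKN1A. The summed level was 22.8 ± 0.858 CPM per kilobase in 2D cells and 27.5 ± 0.729 in 3D cells, and it depends on the same lengths.

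Of the INK4 inhibitors, CDKN2B (ENSG00000147883.12, chromosome 9, 22002903 to 22009305) was at 161, 154 and 164 CPM in 2D cells and at 322, 319 and 332 CPM in 3D cells. GO-203 took it to the highest level of any group, 559, 517 and 601 CPM. On MUC1 silencing it went down from 213, 223 and 226 CPM to 154, 156 and 145 CPM. On MYC silencing it went up from 59.7, 56.7 and 60.02 CPM, its lowest level, to 261, 263 and 247 CPM. None of these 4 pairs of groups overlapped. CDKN2C (ENSG00000123080.12, chromosome 1, 50960745 to 50974634) was at 382, 423 and 414 CPM in 2D cells and at 82.3, 75.2 and 82.8 CPM in 3D cells, with 92.2, 80.8 and 97.0 CPM after GO-203. The 2D cells stood far above every mammosphere library. The tet-MUC1shRNA line had 45.8, 46.8 and 41.5 CPM with vehicle and 52.8, 49.9 and 45.99 CPM with DOX, and the tet-MYCshRNA line 58.1, 56.8 and 55.0 CPM with vehicle and 93.7, 104 and 95.5 CPM with DOX. A long non-coding RNA on the opposite strand, ENSG00000290102, shares 20.4% of the CDKN2C exon bases.

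Per kilobase, CDKN2C made up 77.1% ± 1.30 of the CPM of these 2 INK4 genes in 2D cells, and CDKN2B 75.4% ± 0.771 in 3D cells (SD, n = 3). The same order changed within the tet-MYCshRNA line, where CDKN2C made up 56.1% ± 1.11 with vehicle and CDKN2B 66.5% ± 1.17 with DOX. Before division by length, CDKN2B and CDKN2C were close with vehicle in this line, at means of 58.83 and 56.65 CPM. Together the 2 genes summed to 175 ± 6.63 CPM per kilobase in 2D cells, 108 ± 2.91 in 3D cells and 33.5 ± 0.630 in the vehicle-treated tet-MYCshRNA line.

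**Figure D2:**
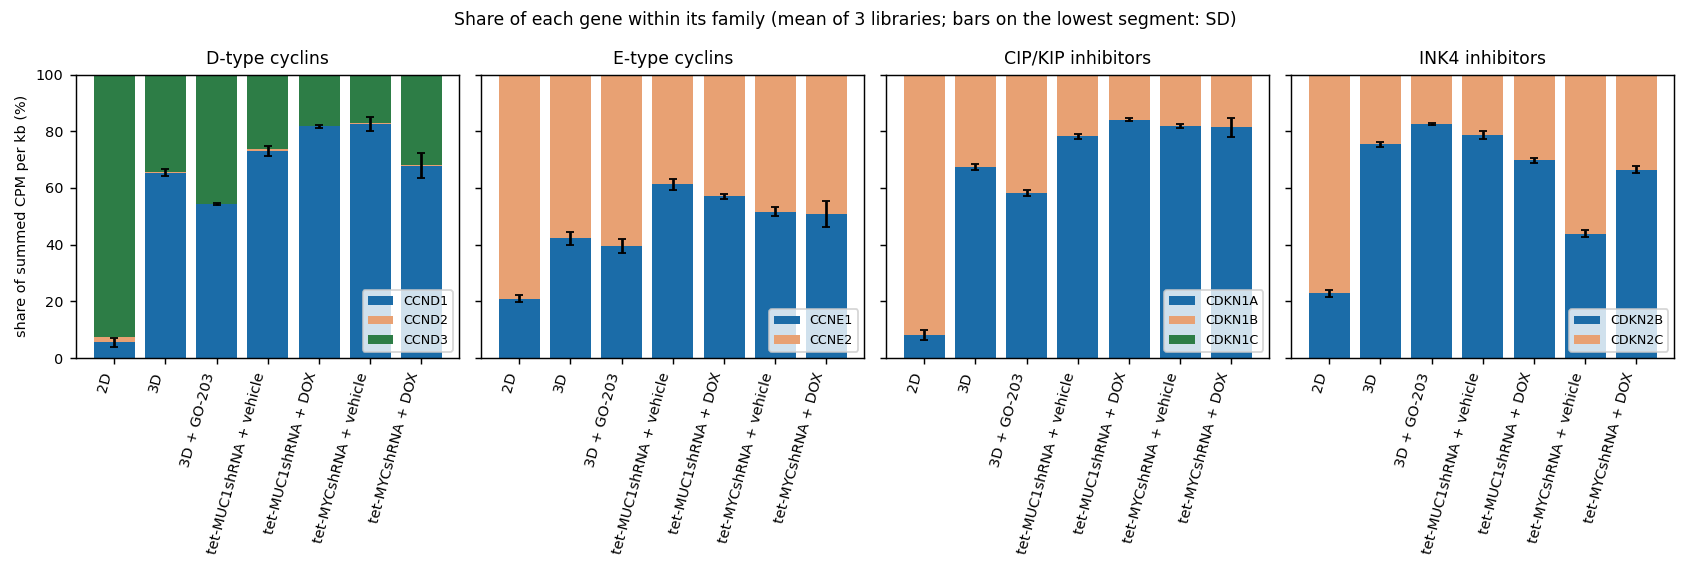
Share of each gene in the summed CPM per kilobase of its family (y axis, %, from 0 to 100) in the 7 groups (x axis), as means of 3 libraries, with SD bars on the lowest segment. The shares depend on the exon lengths used, with all exons of a gene merged. In 2D cells the larger shares belong to CCND3 (92.6%), CCNE2 (79.0%), CDKN1B (91.7%) and CDKN2C (77.1%), and in 3D cells to CCND1 (65.4%), CCNE2 (57.7%), CDKN1A (67.3%) and CDKN2B (75.4%).

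To ask how the G1 genes differed with mammosphere growth, 3D cells were compared with 2D cells. CCND1 rose by a log2 fold change of 6.11 (SE 0.11, adjusted p = 1.5e-16, edgeR's quasi-likelihood test), a 69.0-fold difference. CDKN1A rose by 3.29 (SE 0.12, adjusted p = 9.1e-13). CDKN2C fell by 2.35 (SE 0.06, adjusted p = 1.0e-14), the largest fall of the set. The upregulated genes thus included both a cyclin that promotes G1 exit and a CDK inhibitor. CCND3 (log2 fold change 1.14, adjusted p = 1.4e-09), CDKN2B (1.02, 8.2e-11) and CCNE1 (0.74, 2.4e-05) were also upregulated. CDKN1B (log2 fold change -1.22, adjusted p = 1.3e-11) and CCNE2 (-0.72, 1.8e-07) were downregulated. CCND2 did not pass the test, with a log2 fold change of -0.41 (SE 0.35, adjusted p = 0.33).

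In all, at an adjusted p below 0.1, 5 of the 9 genes tested rose and 3 fell, against 32% and 31.7% of all 19190 genes tested. With an absolute log2 fold change above 1.5 as well there were 3 of 9, against 16.2% of all genes. The groups did not overlap for 8 of the 9, against 64.2% of all genes tested. The median log2 fold change was 0.74 over the 9 genes and -0.01 over all genes. MYC itself was also higher in 3D cells, at 2.76 (SE 0.06, adjusted p = 2.1e-15), as was MUC1, at 1.93 (SE 0.08, adjusted p = 1.8e-12). The summed level of 10 proliferation markers was lower, at 1936 to 1977 CPM against 2457 to 2497 CPM in 2D cells, and its part in these changes was not tested.

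To ask what targeting MUC1 did to these genes, DOX-treated tet-MUC1shRNA mammospheres were compared with vehicle-treated ones. The cyclins CCND1, CCNE1 and CCNE2 were upregulated and the inhibitors CDKN1B and CDKN2B downregulated. CCNE2 showed the largest rise, with a log2 fold change of 0.83 (SE 0.08, adjusted p = 1.1e-08, edgeR), followed by CCND1 (0.64, SE 0.04, adjusted p = 5.1e-11) and CCNE1 (0.58, SE 0.08, adjusted p = 2.0e-06). CDKN1B fell by 0.56 (SE 0.06, adjusted p = 6.3e-08) and CDKN2B fell by 0.52 (SE 0.04, adjusted p = 1.7e-09). CCND2, the scarce D-type cyclin, fell by 1.09 (SE 0.24, adjusted p = 0.00048). CDKN2C was called at 0.17 (adjusted p = 0.02) although its groups overlapped, and this call was lost without tet-MUC1shRNA + vehicle replicate 3 (0.12, adjusted p = 0.11) or without tet-MUC1shRNA + DOX replicate 1 (0.14, adjusted p = 0.12).

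CDKN1A did not pass the test (log2 fold change -0.01, SE 0.06, adjusted p = 0.9), nor did CCND3 (-0.07, SE 0.06, adjusted p = 0.32). Scaled by library size alone, which moved the median of all genes by 0.17 in this comparison, CDKN1A was at 0.16 with an adjusted p of 0.022. Of the 9 genes tested, 4 were upregulated and 3 downregulated, against 30.7% and 31.6% of all 19220 genes. None passed the limit of 1.5, against 8.82% of all genes, although 7 had an adjusted p below 0.1. The groups of 6 of the 9 did not overlap, close to the 62.4% of all genes tested. The median log2 fold change was -0.01 over the 9 genes and 0.02 over all. MYC transcripts were slightly higher on MUC1 silencing (log2 fold change 0.25, SE 0.04, adjusted p = 5.0e-05). The proliferation markers summed to 1246 to 1289 CPM with DOX and 1268 to 1318 CPM with vehicle, ranges that overlapped.

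GO-203 targets the MUC1-C protein rather than its transcript, and 3D cells treated with it were compared with the same 3D cultures used above, so both comparisons share these 3 libraries. The count table left 7587 genes blank in the GO-203 libraries and 6498 in the 2D and 3D libraries. Any difference in handling behind this cannot be told apart from the treatment. In each other comparison both groups shared their blank genes. MUC1 transcripts were higher with GO-203 (log2 fold change 0.33, SE 0.07, adjusted p = 0.0019). CCND1 fell by 0.89 (SE 0.06, adjusted p = 2.9e-10, edgeR) and CDKN2B rose by 0.82 (SE 0.05, adjusted p = 2.6e-10). Both directions were the reverse of those on MUC1 silencing. CDKN1A fell by 0.33 (SE 0.06, adjusted p = 0.00047) and CCND3 fell by 0.21 (SE 0.06, adjusted p = 0.014), the latter call being lost when all 21 libraries were fitted together (adjusted p = 0.17). CDKN1B rose by 0.23 (SE 0.06, adjusted p = 0.0075). CCNE2 (log2 fold change -0.12, adjusted p = 0.3) and CCND2 (-0.62, SE 0.41, adjusted p = 0.34) did not pass the test.

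The calls of CCNE1 (log2 fold change -0.27, adjusted p = 0.087) and CDKN2C (0.20, adjusted p = 0.032, with overlapping groups) rested on single libraries. CCNE1 lost its call without 3D cells replicate 1 (adjusted p = 0.2) or 3 (0.19), or GO-203 replicate 2 (0.16) or 3 (0.3), and CDKN2C without 3D cells replicate 2 (0.12) or GO-203 replicate 1 (0.12) or 3 (0.17). In total 3 genes were upregulated and 4 downregulated, against 11.1% and 12.9% of all 18488 genes tested, and none passed 1.5, against 0.757% of all genes. The groups of 7 of the 9 genes did not overlap, against 33.1% of all genes tested. The median log2 fold change was -0.21 over the 9 genes against 0.02 over all genes. MYC did not pass the test, with a log2 fold change of -0.01 (adjusted p = 0.91). The proliferation markers summed to 1503 to 1674 CPM, below the 3D cells.

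On MYC silencing the cyclins and the inhibitors moved in opposite directions. CDKN2B rose by 2.11 (SE 0.06, adjusted p = 6.1e-09, edgeR), a 4.31-fold difference, and CDKN1B (0.83, adjusted p = 8.3e-06), CDKN1A (0.80, adjusted p = 5.7e-05) and CDKN2C (0.77, adjusted p = 5.8e-06) were also upregulated. CCND2 fell by 1.90 (SE 0.30, adjusted p = 0.00034) and CCND1 fell by 0.95 (SE 0.06, adjusted p = 4.9e-07). CCNE1 (log2 fold change -0.62, adjusted p = 0.00051) and CCNE2 (-0.56, adjusted p = 0.00062) were downregulated too. All 4 inhibitors tested thus rose, and 4 of the 5 cyclins fell. The exception was CCND3, with a log2 fold change of 0.26 (SE 0.15, adjusted p = 0.18), whose 3 DOX libraries at 53.8, 83.5 and 73.5 CPM overlapped with vehicle.

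Without the library that stood apart, tet-MYCshRNA + DOX replicate 1, CCND3 was upregulated at 0.42 (adjusted p = 0.0062), CDKN1A was at 0.91 (adjusted p = 5.1e-08) and CDKN2B at 2.09 (adjusted p = 1.2e-10), with 5 genes upregulated and 4 downregulated. CCND3 was lower without tet-MYCshRNA + DOX replicate 2 (0.12, adjusted p = 0.55) or tet-MYCshRNA + vehicle replicate 3 (0.13, adjusted p = 0.57), and was not called in either. With all 6 libraries, 4 of the 9 were upregulated and 4 downregulated, against 30.3% and 28.1% of all 19951 genes, and 2 passed 1.5, against 10.5% of all genes. The groups did not overlap for 8 of the 9, against 59.5% of all genes tested. The median log2 fold change was 0.26 over the 9 genes and 0.01 over all. MUC1 transcripts were higher on MYC silencing (log2 fold change 1.25, SE 0.11, adjusted p = 5.1e-06). The proliferation markers fell with the cyclins. All 10 were downregulated, and their sum was between 2503 and 2527 CPM with vehicle and between 1466 and 1527 CPM with DOX. Its part in the changes of the G1 genes was not tested.

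**Figure D3:**
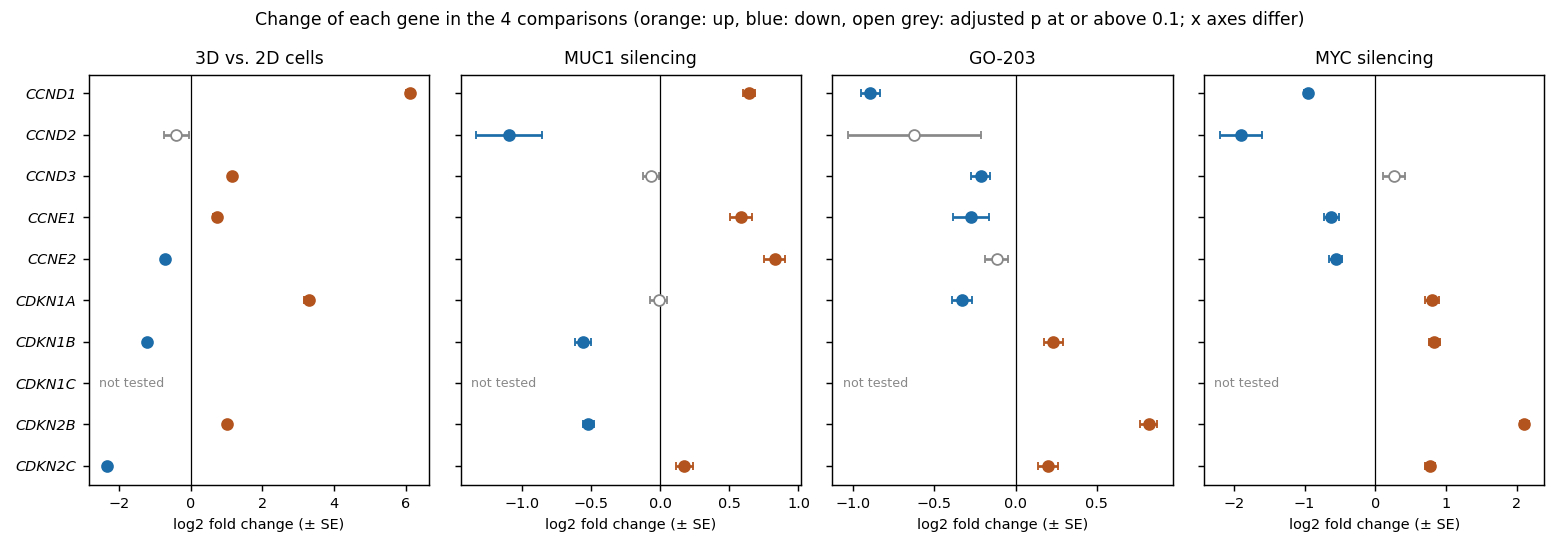
Log2 fold change (x axis, own scale per panel) of each gene (y axis) in the 4 comparisons, with bars for the SE of edgeR's fit. Filled points passed an adjusted p below 0.1 and open points did not. CCND1 lies at 6.11, 0.64, -0.89 and -0.95 and CDKN2B at 1.02, -0.52, 0.82 and 2.11 from left to right.

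The difference between the 2 silencing effects was tested in 1 fit over the 12 libraries of both shRNA lines, as the MUC1 effect minus the MYC effect. It passed an adjusted p below 0.1 for 8 of the 9 genes tested, against 52.9% of all 21585 genes. The differences of CCND1 and both E-type cyclins were positive. CCND1 differed by 1.58 on the log2 scale (SE 0.07, adjusted p = 6.5e-12, edgeR), CCNE2 by 1.38 (SE 0.13, adjusted p = 7.3e-08) and CCNE1 by 1.19 (SE 0.13, adjusted p = 6.4e-07). The differences of the inhibitors were negative, at -2.64 (SE 0.07, adjusted p = 2.0e-14) for CDKN2B, -1.40 (SE 0.10, adjusted p = 3.7e-09) for CDKN1B, -0.82 (SE 0.13, adjusted p = 3.7e-05) for CDKN1A and -0.61 (SE 0.10, adjusted p = 5.5e-05) for CDKN2C. For CCND1, CCNE1, CCNE2, CDKN1B and CDKN2B the 2 effects themselves passed the test with opposite signs. The call of CCND2, which fell in both lines (difference 0.79, adjusted p = 0.078), was lost in 9 of the 12 fits that left out 1 library, with values of 0.60 to 0.81 there, and with DESeq2 (adjusted p = 0.11), with no low-count filter (0.16), with all 21 libraries in 1 fit (0.13) and at a limit of 0.05. It held without tet-MUC1shRNA + DOX replicate 3, tet-MYCshRNA + vehicle replicate 1 or tet-MYCshRNA + DOX replicate 2. CCND3 (difference -0.35, adjusted p = 0.13) was called without tet-MYCshRNA + DOX replicate 1 (-0.51, adjusted p = 0.0022) or tet-MYCshRNA + vehicle replicate 1 (-0.45, adjusted p = 0.057), and ran from -0.51 to -0.21 over the 12 fits that left out 1 library. The lines also differ in passage, which cannot be told apart from the shRNA.

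GO-203 and the MUC1 shRNA are both directed at MUC1, and the difference of their effects was tested after the values had been seen. It passed for 6 of the 9 genes, against 44.9% of all 20829 genes. GO-203 minus MUC1 silencing was -1.54 (SE 0.07, adjusted p = 2.6e-15, edgeR) for CCND1, -0.95 (SE 0.11, adjusted p = 5.1e-08) for CCNE2, -0.86 (SE 0.13, adjusted p = 4.2e-06) for CCNE1 and -0.32 (SE 0.10, adjusted p = 0.0086) for CDKN1A. It was 1.33 (SE 0.07, adjusted p = 1.7e-14) for CDKN2B and 0.78 (SE 0.09, adjusted p = 4.1e-08) for CDKN1B. The call of CDKN1A was lost when all 21 libraries were fitted together (adjusted p = 0.11). For CCND3 (-0.15, adjusted p = 0.18), the difference was called without 3D cells replicate 2 (-0.20, adjusted p = 0.099) or tet-MUC1shRNA + vehicle replicate 1 (-0.20, adjusted p = 0.087). CCND2 (0.46, SE 0.43, adjusted p = 0.44) and CDKN2C (0.02, SE 0.09, adjusted p = 0.88) did not pass. The 2 treatments were given to different lines, and the time of GO-203 exposure before sequencing is not given in the sources used here. The GO-203 libraries also differ from the 3D cells in their blank genes, as said above, which cannot be told apart from the treatment.

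Of 8 G1 kinases that these cyclins drive and their activators, 4 were upregulated and 1 downregulated in 3D relative to 2D cells, 2 and 6 after MUC1 silencing, 0 and 3 with GO-203, and 0 and 8 on MYC silencing, with median log2 fold changes of 0.17, -0.30, -0.14 and -0.47. Over all genes tested in the same 4 comparisons, 32% and 31.7%, 30.7% and 31.6%, 11.1% and 12.9%, and 30.3% and 28.1% were upregulated and downregulated, with medians of -0.01, 0.02, 0.02 and 0.01. The 2 of 8 upregulated on MUC1 silencing are near that share. CDK6, a partner of the D-type cyclins, went from 207 ± 6.79 to 397 ± 9.11 CPM on MUC1 silencing (log2 fold change 0.96, adjusted p = 6.9e-14) and from 485 ± 25.3 to 194 ± 16.6 CPM on MYC silencing (-1.34, adjusted p = 2.9e-07; SD, n = 3). It was at -0.49 in 3D vs. 2D cells (adjusted p = 4.4e-05) and at -0.03 with GO-203 (adjusted p = 0.84). CDC25A, the phosphatase that activates CDK2, moved likewise with silencing, at 0.64 (adjusted p = 2.4e-08) for MUC1 and -1.44 (adjusted p = 4.2e-07) for MYC. MNAT1, the assembly factor of the CDK-activating kinase, fell by 0.66 on MUC1 silencing (adjusted p = 5.8e-08). CDK4 was at -0.22 and -0.39 on MUC1 and MYC silencing (adjusted p = 0.0046 and 0.0043) and CDK2 at -0.39 and -0.49 (adjusted p = 4.4e-07 and 0.00022). Neither CDK4 nor CDK2 passed the test in 3D vs. 2D cells (0.11, adjusted p = 0.14, and 0.01, adjusted p = 0.88). With GO-203, CDK2 was at -0.16 (adjusted p = 0.064), CDK4 at -0.15 (adjusted p = 0.13) and CDC37, a chaperone partner of CDK4, at -0.21 (adjusted p = 0.028). In 3D vs. 2D cells the largest called change was that of CCNH, the cyclin of the CDK-activating kinase (0.62, adjusted p = 1.7e-07).

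Of 13 pocket proteins and E2F factors, 4 were upregulated and 5 downregulated in 3D relative to 2D cells, 8 and 4 on MUC1 silencing, 1 and 4 with GO-203, and 3 and 8 on MYC silencing, with medians of -0.08, 0.24, -0.12 and -0.60. Both counts in 3D vs. 2D cells are near the 32% and 31.7% of all genes. The same holds for the 4 downregulated on MUC1 silencing (31.6% of all genes), the 1 upregulated with GO-203 (11.1%) and the 3 upregulated on MYC silencing (30.3%). E2F1, an activator of S phase genes, was at 0.32 (adjusted p = 0.00021) on MUC1 silencing, -0.29 (adjusted p = 0.012) with GO-203 and -0.53 (adjusted p = 0.0036) on MYC silencing, and did not pass in 3D vs. 2D cells (-0.02, adjusted p = 0.85). E2F5, which pairs with pocket proteins in repressor complexes, showed the largest fall, from 36.0 ± 1.42 to 9.35 ± 2.03 CPM on MYC silencing (SD, n = 3, log2 fold change -1.97, adjusted p = 1.7e-06), followed by E2F7 (-1.31, adjusted p = 3.3e-07). The pocket protein gene RBL1 fell by 1.06 on MUC1 silencing (adjusted p = 6.8e-13), where TFDP2, a partner of E2F factors, rose by 0.88 (adjusted p = 3.0e-12). In 3D vs. 2D cells E2F4 (1.10, adjusted p = 8.6e-10) and E2F7 (-1.04, adjusted p = 4.6e-10) changed most. With GO-203, the largest changes were those of RB1, which encodes the founding pocket protein (0.42, adjusted p = 0.0011), and TFDP1 (-0.36, adjusted p = 3.6e-05).

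Of 12 genes for the turnover of G1 cyclins and inhibitors, 6 were upregulated and 2 downregulated in 3D relative to 2D cells, 3 and 5 on MUC1 silencing, 2 and 2 with GO-203, and 2 and 6 on MYC silencing, with medians of 0.13, -0.06, -0.03 and -0.21. Of all genes, 32% and 31.7%, 30.7% and 31.6%, 11.1% and 12.9%, and 30.3% and 28.1% were called up and down in these comparisons, so the 3 upregulated on MUC1 silencing and both counts with GO-203 are near those of all genes. USP2, a deubiquitinase known to stabilise cyclin D1, was upregulated in all 4 comparisons, by 2.43 (adjusted p = 2.4e-11) in 3D vs. 2D cells, 0.54 (adjusted p = 2.6e-06) after MUC1 silencing, 0.84 (adjusted p = 1.3e-08) with GO-203 and 1.12 (adjusted p = 0.00014) on MYC silencing. CCND1 fell in the last 2 of these. SKP2, the ubiquitin ligase subunit that marks p27 for destruction, fell by 1.01 on MYC silencing (adjusted p = 4.4e-07). Without tet-MYCshRNA + DOX replicate 1, FBXW7, the F-box protein that recognises cyclin E, was downregulated on MYC silencing (-0.23, adjusted p = 0.028, against -0.16, adjusted p = 0.16, with it), and no other call in the 6 lists of related genes changed. FBXO31 and FBXO4, F-box proteins linked to cyclin D1, were at 1.04 (adjusted p = 3.3e-08) in 3D vs. 2D cells and -0.82 (adjusted p = 2.0e-09) after MUC1 silencing, respectively. FBXO4 was also upregulated with GO-203 (0.29, adjusted p = 0.031).

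Of 9 other cyclins and inhibitors, 4 were upregulated and 5 downregulated in 3D relative to 2D cells, 1 and 7 on MUC1 silencing, 0 and 2 with GO-203, and 1 and 6 on MYC silencing, with medians of -0.20, -0.60, -0.12 and -0.72. The shares of all genes were 32% and 31.7%, 30.7% and 31.6%, 11.1% and 12.9%, and 30.3% and 28.1% in the same order. CCNG1 and CCNG2, atypical cyclins associated with growth arrest, fell by 1.80 (adjusted p = 6.6e-18) and by 1.95 (adjusted p = 8.8e-16) on MUC1 silencing. CCNA1, an A-type cyclin, was at 1.77 (adjusted p = 0.011) in 3D vs. 2D cells and -1.75 (adjusted p = 5.9e-05) on MYC silencing, and CCNDBP1, which binds D-type cyclins, at 3.25 (adjusted p = 0.00079) in 3D vs. 2D cells. Both were scarce there, with means from 0.117 to 0.395 CPM for CCNA1 and from 0.0410 to 0.381 CPM for CCNDBP1. CCNA1 went from 2.19 to 0.654 CPM on MYC silencing. CCNA2 and CCNB1, cyclins of S phase and mitosis, fell by 1.26 (adjusted p = 1.2e-07) and by 1.10 (adjusted p = 1.7e-07) on MYC silencing and by 0.33 (adjusted p = 0.00089) and by 0.29 (adjusted p = 0.00064) with GO-203. They also fell on MUC1 silencing, by 0.69 (adjusted p = 1.7e-10) and by 0.22 (adjusted p = 8.1e-05). In 3D vs. 2D cells they fell by 0.87 (adjusted p = 2.7e-09) and by 0.54 (adjusted p = 2.7e-07). MKI67, a marker of cycling cells, was at -0.55 (adjusted p = 4.1e-06) in 3D vs. 2D cells, 0.14 (adjusted p = 0.012) after MUC1 silencing, -0.27 (adjusted p = 0.0043) with GO-203 and -0.96 (adjusted p = 7.9e-07) on MYC silencing. The 10 proliferation markers counted 3 up and 6 down, 3 and 4, 0 and 7, and 0 and 10 in the same order. The 3 upregulated in each of the first pair of comparisons are near the shares of all genes given above.

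Since CDKN1A is a p53 target, 12 other such targets were read beside it. They counted 7 up and 4 down in 3D vs. 2D cells, where CDKN1A rose by 3.29, 5 and 4 on MUC1 silencing, 4 and 1 with GO-203, and 5 and 2 on MYC silencing. Their medians were 0.31, 0.14, 0.09 and 0.30. The 4 downregulated in 3D vs. 2D cells and the 4 on MUC1 silencing are near the 31.7% and 31.6% of all genes, and the 1 downregulated with GO-203 is near 12.9%. Of all genes, 32%, 30.7%, 11.1% and 30.3% were upregulated in the 4 comparisons. In 3D vs. 2D cells GADD45A (2.85, adjusted p = 4.5e-14), BBC3 (1.62, adjusted p = 1.1e-06) and BTG2 (1.59, adjusted p = 0.02), which act in growth arrest or apoptosis, rose past 1.5. BTG2 was scarce, with means of 0.161 and 0.472 CPM. TP53INP1, another stress-response gene, went against CDKN1A there, at -2.23 (adjusted p = 1.9e-13), and with it on MYC silencing, at 2.15 (adjusted p = 7.6e-08). With GO-203 TP53INP1 again went against CDKN1A, at 0.61 (adjusted p = 7.5e-06). On MUC1 silencing, where CDKN1A did not pass the test, it was at -0.86 (adjusted p = 1.5e-09). The p53-binding ubiquitin ligase gene MDM2 was at 0.13 (adjusted p = 0.074) in 3D vs. 2D cells and at -0.43 (adjusted p = 0.0012) on MYC silencing. It was at 0.345 (adjusted p = 1.5e-06) on MUC1 silencing and at -0.08 (adjusted p = 0.4) with GO-203.

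**Figure D4:**
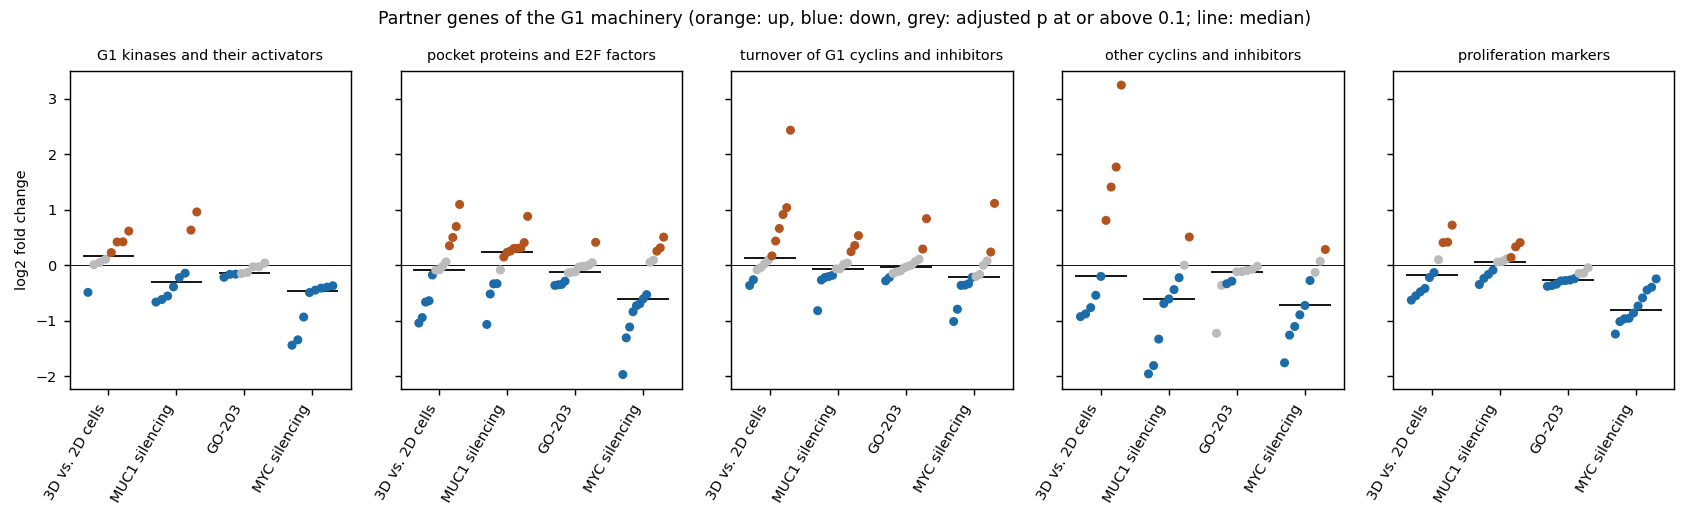
Log2 fold change (y axis) of the single genes (points) of 5 lists in the 4 comparisons (x axis), with the median of each as a line. Points in colour passed an adjusted p below 0.1. All 8 kinase genes and all 10 proliferation markers lie below 0 on MYC silencing, with medians of -0.47 and -0.80.

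Over the 21 libraries, the gene whose log CPM followed each of the 10 most closely was found among the genes with a mean of at least 10 CPM. The libraries fall into 7 groups and share treatment within them, though not depth, so these values mainly describe the group pattern. The closest gene was NOS2 for CCND1 (Pearson's r = 0.995), C5AR1 for CDKN1A (0.995), SBSPON for CDKN2C (0.984), MAP2K6 for CDKN2B (0.976), PRUNE2 for CDKN1B (0.973), PSMD1 for CCNE2 (0.954), CLMP for CCNE1 (0.952), SH3RF3 for CCND3 (0.941), BCL7A for CCND2 (0.906) and USF1 for CDKN1C (0.849). The last value rests on 48 counts with 11 libraries at 0, so it says little about CDKN1C. Within the set, CCND1 and CDKN1A were closest to each other (r = 0.954), and CCND1 and CDKN2C (r = -0.945) and CCNE1 and CDKN1B (r = -0.944) were the most opposed.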

How the data were processed

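RNA from 21 BT-549 cultures, done in triplicate with replicate numbers in the labels, was sequenced from TruSeq stranded mRNA libraries. The authors deposited raw read counts per gene, not normalized, from reads aligned to GRCh38 with STAR and counted with featureCounts. The submitters' processing notes name STAR 2.7.3a, CASAVA 1.8.2 and DESeq2, and the study's methods name another STAR version. Annotation release, strand setting and handling of reads with several matches are not given in the sources used here. Blank cells were read as 0. A gene was blank either in all libraries of a set or in none. The sets were 2D with 3D cells (6498 genes blank), GO-203 (7587), tet-MUC1shRNA (4952) and tet-MYCshRNA (5761). What the sets stand for is not given in the sources used here. Gene positions and exon lengths, with all exons of a gene merged, are from GENCODE 44, and 42252 of the 42339 identifiers had a symbol.

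Each pair of groups was fitted on its 6 libraries in R 4.3.3 with edgeR 4.0.16 (filterByExpr, TMM factors, quasi-likelihood test, Benjamini-Hochberg adjustment over all genes tested, calls at an adjusted p below 0.1, and also at an absolute log2 fold change above 1.5). The authors tested with DESeq2, which is an alternative here (1.42.0). Differences between effects were interaction terms. Each fit was tested on simulated data. The replicate numbers did not pair the samples, with mean correlations of same-numbered deviations of -0.02, 0.02, 0.06 and -0.11, and the labels name no sequencing batch or date. Where nothing says that cultures were started separately, p-values measure only the spread between these samples.

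The 10 genes, the 6 lists of related genes and the cell type markers were chosen with earlier results of these data known. Named are all 10 in every comparison, the listed genes past both thresholds, the 2 largest called changes of the lists of kinases, pocket proteins and E2F factors, turnover genes and other cyclins, and CDK4, CDK6, CDK2, E2F1 and MKI67. MDM2, CDC25A in the comparisons of silencing, CCNA2 on MUC1 silencing and in 3D vs. 2D cells, and CCNB1 outside GO-203 were added after their values were seen. The same holds for TP53INP1 on MUC1 silencing and with GO-203, and for FN1 on MYC silencing. Alternatives were DESeq2, RLE factors, library size alone, no low-count filter, all 21 libraries in 1 fit, at least 10 counts in every library, the replicate block, an adjusted p below 0.05, halved counts and leaving out each library. Halved counts, the fit of the related genes without 1 library on MYC silencing and the GO-203 against MUC1 silencing difference were added after seeing the data. Figures were drawn with matplotlib 3.10.9.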

Additional observations from a re-analysis of the deposited data

Results flagged for a closer look

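The effects of MUC1 and MYC silencing differed for 8 of the 9 genes tested, by edgeR's interaction test over 12 libraries. The MUC1 effect minus the MYC effect was 1.58 on the log2 scale for CCND1, 0.79 for CCND2, 1.19 for CCNE1, 1.38 for CCNE2, -0.82 for CDKN1A, -1.40 for CDKN1B, -2.64 for CDKN2B and -0.61 for CDKN2C. Among these 8 the 4 cyclins were positive and the 4 inhibitors negative, beside 52.9% of all genes with a called difference of either sign. The call of CCND2 was lost in 9 of the 12 fits that left out 1 library. The other cyclin, CCND3, was negative at -0.35 (adjusted p = 0.13) and was called without tet-MYCshRNA + DOX replicate 1 (-0.51, adjusted p = 0.0022) and without tet-MYCshRNA + vehicle replicate 1 (-0.45, adjusted p = 0.057), with a range of -0.51 to -0.21 over the 12 such fits.

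The effects of GO-203 and MUC1 silencing, both directed at MUC1, differed for 6 of the 9 genes, against 44.9% of all genes, by the same kind of test, added after seeing the data. GO-203 minus MUC1 silencing was -1.54 for CCND1, -0.86 for CCNE1, -0.95 for CCNE2, -0.32 for CDKN1A, 0.78 for CDKN1B and 1.33 for CDKN2B. With 3 samples a group, the values of single genes were not screened for outlying samples.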

How the results depend on the processing

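Counts of upregulated and downregulated genes stayed within 1.5 times of those reported under every alternative run. Of 36 values, the tested genes in the 4 comparisons, 29 kept direction and side of the threshold in all alternatives, 4 lost a call in some (CDKN2C on MUC1 silencing and CCNE1, CCND3 and CDKN2C with GO-203), 1 gained one in the same direction (CCND3 on MYC silencing) and 2 changed sign (CCND3 and CDKN1A on MUC1 silencing, neither called as reported). On MUC1 silencing and with library size alone, CCND3 was at 0.10 (adjusted p = 0.12) and CDKN1A at 0.16, where it was called (adjusted p = 0.022). CDKN1A was also at 0.04 with at least 10 counts in every library, at 0.015 with halved counts, and from -0.064 to 0.08 with 1 library left out. For GO-203 minus MUC1 silencing, CDKN2C was at -0.13 with library size alone, -0.003 with no low-count filter, -0.024 with at least 10 counts in every library and from -0.028 to 0.083 with 1 library left out. The cause was not tested. CCNE1 with GO-203 lost its call with library size alone and with no low-count filter (adjusted p = 0.1 in each), and CDKN2C with GO-203 when all 21 libraries were fitted together (adjusted p = 0.13). CCND3 gained a call on MYC silencing and in the MUC1 minus MYC difference with no low-count filter and with all 21 libraries in 1 fit, and in the GO-203 minus MUC1 difference with library size alone and with at least 10 counts in every library. Library size alone moved the median of all genes by 0.17 on MUC1 silencing, 0.20 in the MUC1 minus MYC difference and -0.155 in the GO-203 minus MUC1 difference.

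The numbers in the labels did not pair the samples, and the replicate block changed none of the 54 calls (CCND1 at 6.12 in 3D vs. 2D cells with the block). Depth limits CDKN1C, with 48 counts in all, and CCND2, with 12 to 136 counts a library.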
